A study of Mus musculus with 36 samples.

Results

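White adipose tissue was compared between 24-month-old males heterozygous for an inactivated Myc allele (Myc+/-) and wild-type males of the same age, all of the C57Bl/6 strain. The members are all the genes that the array measures in this tissue. Of 35556 probe sets on the Affymetrix mouse gene array, 21789 are annotated with 1 gene symbol, and these stand for 19938 genes, each read from its probe set with the highest mean over the 12 adipose arrays. The values are the deposited log2 intensities, so a difference of 1 is a 2-fold change, and every difference below is Myc+/- minus wild type unless another direction is named.

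The Myc+/- sample was 1 pool of equal amounts of RNA from 8 mice and the wild-type sample was 1 pool from 5 mice, and each pool was hybridised to 3 arrays. The study also holds adipose pools of 5-month-old males (Myc+/-, 5 mice, and wild type, 6 mice), and liver and skeletal muscle pools taken from the same mice at both ages, which makes 12 pools and 36 arrays. The sources used here give neither the fat depot nor which part of Myc was inactivated. The 3 arrays of a pool repeat the measurement of 1 RNA mixture, so every p-value measures array-to-array error alone and the spread between mice is not in it. The 12 adipose arrays had medians between 7.05 and 7.14. Each adipose array correlated with the other arrays of its own pool at a mean r of 0.996 to 0.997.

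Myc is a transcription factor that pairs with Max at CACGTG and related E-box sequences and drives genes of ribosome production, nucleotide synthesis, metabolism and cell division. White adipose tissue stores triglyceride in adipocytes. Adipocytes can also make fatty acids from glucose carbon, a route driven by the transcription factors SREBP-1c (Srebf1) and ChREBP (Mlxipl). The tissue also holds macrophages, lymphocytes, vessels and progenitors, and macrophages that take up lipid and express Trem2, Gpnmb, Mmp12 and Itgax accumulate in aged and obese fat.

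Myc itself was lower in the Myc+/- pool. Its log2 intensity was 9.44, 9.63 and 9.38 on the Myc+/- arrays, against 10.23, 10.47 and 10.17 on the wild-type arrays. The 2 sets of arrays did not overlap, which held for 4559 of the 19938 genes (22.9%), so separation of the arrays alone is common here. The means were 9.48 ± 0.13 and 10.29 ± 0.16 (SD, n = 3 arrays each). The difference was -0.81 ± 0.09 (SE), or 1.75-fold lower, with an adjusted p of 2.2e-08 in limma. In the 5-month adipose pools Myc stood at 9.38 in Myc+/- and 9.70 in wild type, a difference of -0.32 that was under the fold threshold. Pvt1, the noncoding neighbour of Myc, read 7.50, 7.87 and 7.60 on the Myc+/- arrays and 7.26, 7.18 and 7.27 on the wild-type arrays, and its difference of 0.42 was also under the threshold. At 5 months it rose by 0.72.

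A gene is said here to have risen or fallen where limma with Benjamini-Hochberg adjustment over all 21789 probe sets gave an adjusted p under 0.05 and the difference was at least 1.5-fold. By this rule 228 genes rose in the Myc+/- pool (1.14% of the genes tested) and 146 fell (0.732%). Over probe sets the counts were 234 (1.07%) and 169 (0.776%). Of all genes 53.7% had a positive difference and the median difference was 0.01. At least 2-fold differences were seen in 94 of the genes that rose and 40 of those that fell. Of the probe sets at least 1.5-fold higher, 235 of 236 had no overlap of arrays, and of those at least 1.5-fold lower, 171 of 171. Separation of the arrays therefore adds little for a gene that passed.

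The genes that rose were mostly dim ones. Among them 157 of 228 lay under the 40th percentile of mean adipose intensity (6.99), and their median intensity was 6.22. Among the genes that fell, 64 of 146 lay under it and the median was 7.09. With a filter at that percentile, 74 probe sets rose and 83 fell, so the excess of genes that rose was not seen among the brighter probe sets.

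**Figure D1:**
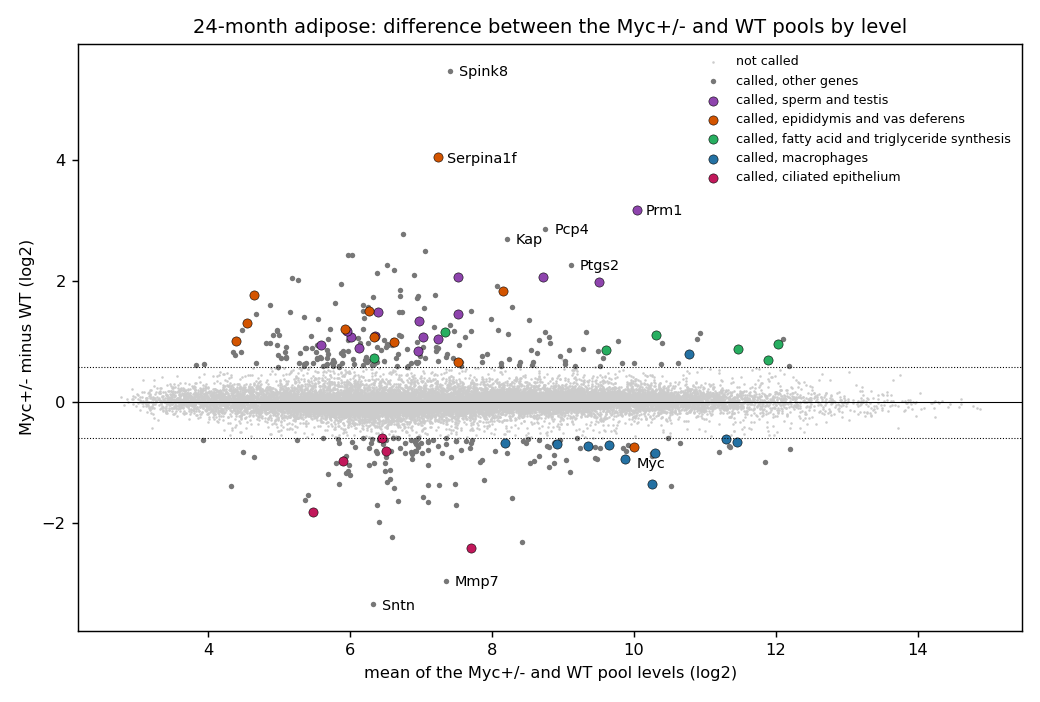
Difference between the 24-month Myc+/- and wild-type adipose pools (y axis, log2) against the mean log2 intensity of those pools (x axis), 1 point a gene, with dotted lines at 1.5-fold and coloured points for genes of 5 lists that passed the test. Spink8 has the largest rise (5.48) and Sntn the largest fall (-3.33), and Myc lies at -0.81.

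Of the Myc network (Myc, Max and the Mxd, Mlx and Mycl relatives), 15 genes were measured, none rose and Myc alone fell. Mlxipl differed by 0.26, Mycl by 0.19 and Mxd3 by -0.14, all under the threshold. The ribosome lists gave no call in either direction. The 33 measured ribosome biogenesis genes had a median difference of -0.03, with 12 positive, and fibrillarin (Fbl) was at -0.26. The 30 ribosomal protein genes had a median of -0.14 with 26 negative, among them Rpl5 at -0.26. Over all genes the median was 0.01.

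Genes of fatty acid and triglyceride synthesis were higher in the Myc+/- pool. Of 33 measured, 7 rose and none fell. The other 26 did not pass, 29 of the 33 had a positive difference, and the list's median was 0.28. Elovl6, which elongates long-chain saturated fatty acids, read 10.83, 10.84 and 10.93 on the Myc+/- arrays and 9.66, 9.70 and 9.90 on the wild-type arrays, a 2.16-fold rise. Every Myc+/- array was above every wild-type array. Acly, which makes cytosolic acetyl-CoA from citrate, read 11.89, 11.93 and 11.92 in Myc+/- and 11.05, 11.10 and 10.93 in wild type, a rise of 0.88 with no overlap.

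The desaturase Scd2 rose by 0.96 (12.57, 12.47 and 12.47 in Myc+/-, 11.59, 11.56 and 11.49 in wild type). Me1, the cytosolic malic enzyme that supplies NADPH, rose by 0.69 (12.26, 12.21 and 12.23 in Myc+/-, 11.49, 11.59 and 11.55 in wild type). Acss2, which makes acetyl-CoA from acetate, rose by 0.86 (9.98, 10.05 and 10.08 in Myc+/-, 9.15, 9.13 and 9.24 in wild type). All 3 genes were separated between the pools by several times the range of their arrays.

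The other 2 genes of the list that rose were Mogat2, which adds an acyl group to monoacylglycerol, and the elongase Elovl3. Mogat2 read 7.78, 8.00 and 7.96 in Myc+/- and 6.66, 6.60 and 7.01 in wild type. Elovl3 read 6.76, 6.52 and 6.84 in Myc+/- and 6.06, 5.76 and 6.11 in wild type. Both also rose in the Myc+/- pool at 5 months, by 1.01 and 0.95.

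Several of the best-known genes of the route stayed under the 1.5-fold threshold. Fatty acid synthase (Fasn) averaged 13.97 in Myc+/- and 13.52 in wild type, and acetyl-CoA carboxylase (Acaca) 12.35 and 11.88, although a second Acaca probe set rose by 0.67. Thrsp, a lipogenic factor, averaged 12.89 in Myc+/- and 12.42 in wild type. The regulator Srebf1 differed by 0.09. Slc2a5, the fructose transporter, rose by 0.91.

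The summed linear intensity of the 33 genes was 138229 to 142638 on the Myc+/- arrays and 114066 to 114288 on the wild-type arrays at 24 months. At 5 months it was 157063 to 158370 in Myc+/- and 152614 to 160626 in wild type, where the 2 pools overlapped. The list's median difference at 5 months was -0.02 and 2 genes rose there. In a test of the genotype difference at 24 months minus that at 5 months, 6 of the 33 genes passed with the larger difference at 24 months (255 genes, 1.28%, passed in that direction over the array). In bulk tissue, fewer cells of a type and less RNA per cell cannot be told apart.

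Adipocyte genes as a whole did not pass the test. Of 25 genes of adipocyte identity and adipokines none rose or fell, 21 had a positive difference and the median was 0.10. Adiponectin (Adipoq) averaged 13.62 in Myc+/- and 13.61 in wild type, perilipin (Plin1) 13.16 and 13.14, and the fatty acid carrier Fabp4 14.18 and 14.28. Leptin (Lep) averaged 12.79 in Myc+/- and 12.42 in wild type, below the fold threshold. The summed intensity of the list was 160096 to 162541 on the Myc+/- arrays and 152545 to 156272 on the wild-type arrays.

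The lists of lipolysis, cholesterol synthesis and oxidative phosphorylation gave no calls. The 22 lipolysis genes had a median difference of 0.01, the 21 cholesterol synthesis genes 0.21 and the 41 oxidative phosphorylation genes -0.04. Of 15 genes of thermogenic fat, Elovl3 alone rose and none fell. Ucp1, the uncoupling protein of thermogenic fat, averaged 5.75 in Myc+/- and 5.66 in wild type. Cyp4a10 was the 1 gene of 26 in the list of fatty acid oxidation and PPAR targets that rose, by 0.85. The lists of insulin and mTOR signalling, glycolysis, progenitors, senescence, autophagy, heat shock, oxidative stress, circadian clock and polyamine genes held no gene that passed in either direction.

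A minority of macrophage genes fell in the Myc+/- pool, while most had a negative difference. Of 34 macrophage genes 9 fell and 1 rose, 25 had a negative difference and the median was -0.18. Atp6v0d2, a proton pump subunit of osteoclasts and macrophages, read 9.61, 9.57 and 9.57 in Myc+/- and 10.95, 10.90 and 10.93 in wild type, 2.53-fold lower. Trem2, a lipid-sensing receptor, read 9.48, 9.40 and 9.35 in Myc+/- and 10.32, 10.25 and 10.46 in wild type, 1.91-fold lower. In both genes every Myc+/- array was under every wild-type array.

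Mmp12, the macrophage elastase, fell by 0.83 (9.88, 9.90 and 9.85 in Myc+/-, 10.76, 10.67 and 10.70 in wild type). The glycoprotein gene Gpnmb fell by 0.66 (11.07, 11.17 and 11.15 in Myc+/-, 11.86, 11.81 and 11.69 in wild type). The integrin gene Itgax, which encodes CD11c, fell by 0.66 (8.00, 7.82 and 7.71 in Myc+/-, 8.53, 8.54 and 8.45 in wild type). In each of the 3 genes all Myc+/- arrays lay under all wild-type arrays.

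The other macrophage genes that fell were Fcgr1 (-0.71), Ctsk (-0.70), Clec7a (-0.68) and Mpeg1 (-0.61), and Mpeg1 lost the call without Myc+/- array 3 (-0.55). Pan-macrophage genes were under the threshold: Adgre1, which encodes F4/80, averaged 11.17 in Myc+/- and 11.64 in wild type, and Cd68 differed by -0.32. Cd9 (-0.25) and the lipase gene Lpl (0.03), which lipid-laden macrophages also express, did not pass. Genes of resident macrophages had differences of 0.01 for Mrc1, 0.24 for Cd163 and 0.37 for Lyve1. Lyz1, a lysozyme of macrophages and Paneth cells, was the 1 gene of the list that rose (11.10, 11.20 and 11.22 in Myc+/-, 10.24, 10.53 and 10.35 in wild type). The summed intensity of the list was 88826 to 90433 on the Myc+/- arrays and 102568 to 104207 on the wild-type arrays.

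At 5 months the macrophage list ran the other way. There 7 of the 34 genes rose in the Myc+/- pool (210 genes, 1.05%, rose over the array at that age), none fell and 32 had a positive difference. Mmp12 averaged 10.69 in Myc+/- and 8.97 in wild type at 5 months, and Gpnmb 10.44 and 9.08. Trem2 averaged 8.80 in Myc+/- and 8.15 in wild type. In the test of the 24-month difference minus the 5-month difference, 17 of the 34 genes passed with a negative sign (324 genes, 1.63%, over the array), led by Mmp12 at -2.56, Atp6v0d2 at -2.48 and Gpnmb at -2.02. The summed intensity at 5 months was 57993 to 58495 in Myc+/- and 46027 to 46937 in wild type, so each 5-month pool was below each 24-month pool.

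Some acute phase genes fell too. Of 21 acute phase genes 4 fell and 1 rose. Lipocalin 2 (Lcn2) read 11.35, 11.33 and 11.39 in Myc+/- and 12.34, 12.37 and 12.31 in wild type. Serum amyloid Saa3, made in fat, read 11.02, 11.03 and 10.88 in Myc+/- and 11.72, 11.77 and 11.64 in wild type, whereas at 5 months it averaged 9.62 in Myc+/- and 8.37 in wild type and had risen. Saa2 (-1.01) and Saa1 (-0.82) also fell, and these near-identical paralogs may share signal. Orm1 rose by 0.61 and lost the call without Myc+/- array 1 (0.54) or wild-type array 3 (0.48). In 24-month liver of the same mice Saa1 (-3.94), Saa2 (-1.74) and Saa3 (-0.89) fell as well, and in muscle none of them passed. Of the 21 acute phase genes 6 fell and none rose in liver, where 0.572% of all genes fell. In muscle 5 fell and 2 rose, where 1.01% of all genes fell and 0.371% rose.

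Of 28 cytokine and chemokine genes, Cxcl14 (-0.80) and Ccl5 (-0.71) fell and none rose. At 5 months 11 genes of the list rose (1.05% of all genes rose there), neither Cxcl14 nor Ccl5 among them. Ccl5, a T cell chemokine, read 11.06, 10.92 and 10.98 in Myc+/- and 11.75, 11.70 and 11.64 in wild type. Of 27 T and NK cell genes 3 fell (Cd8b1 by 0.84, the granule protease Gzmb by 0.80, and Ccl5) and none rose. Timp1, an inhibitor of metalloproteinases, read 8.33, 8.54 and 8.28 in Myc+/- and 9.37, 9.54 and 9.22 in wild type, and at 5 months it rose by 1.29.

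B cell and plasma cell genes were split. Of 21, 3 rose and 1 fell. Igha, the IgA heavy chain, read 11.48, 11.61 and 11.39 in Myc+/- and 10.30, 10.42 and 10.34 in wild type. It also rose in 5-month adipose tissue (1.28) and 24-month muscle (1.16), and fell in 24-month liver (-1.29). In 24-month adipose tissue the complement receptor Cr2 rose by 0.70 and the IgE receptor Fcer2a by 0.69. The brightest Ighm probe set fell by 0.84, but its other probe sets differed by -0.02 and 0.46. Of 33 interferon-response genes, Ifit3 (0.65) rose and 28 had a positive difference, with a median of 0.18. Of 39 proliferation genes, the cyclin Ccna2 (-0.64) fell, 35 had a negative difference and the median was -0.17. Ifit3 lost the call without wild-type array 3 (0.58) and Ccna2 without Myc+/- array 2 (-0.58). At 5 months 37 of the 39 proliferation genes had a positive difference, the median was 0.09 and none passed. In 24-month liver 5 of them rose (0.983% of all genes rose there), none fell and the median was 0.34. In 24-month muscle none passed and the median was -0.03.

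**Figure D2:**
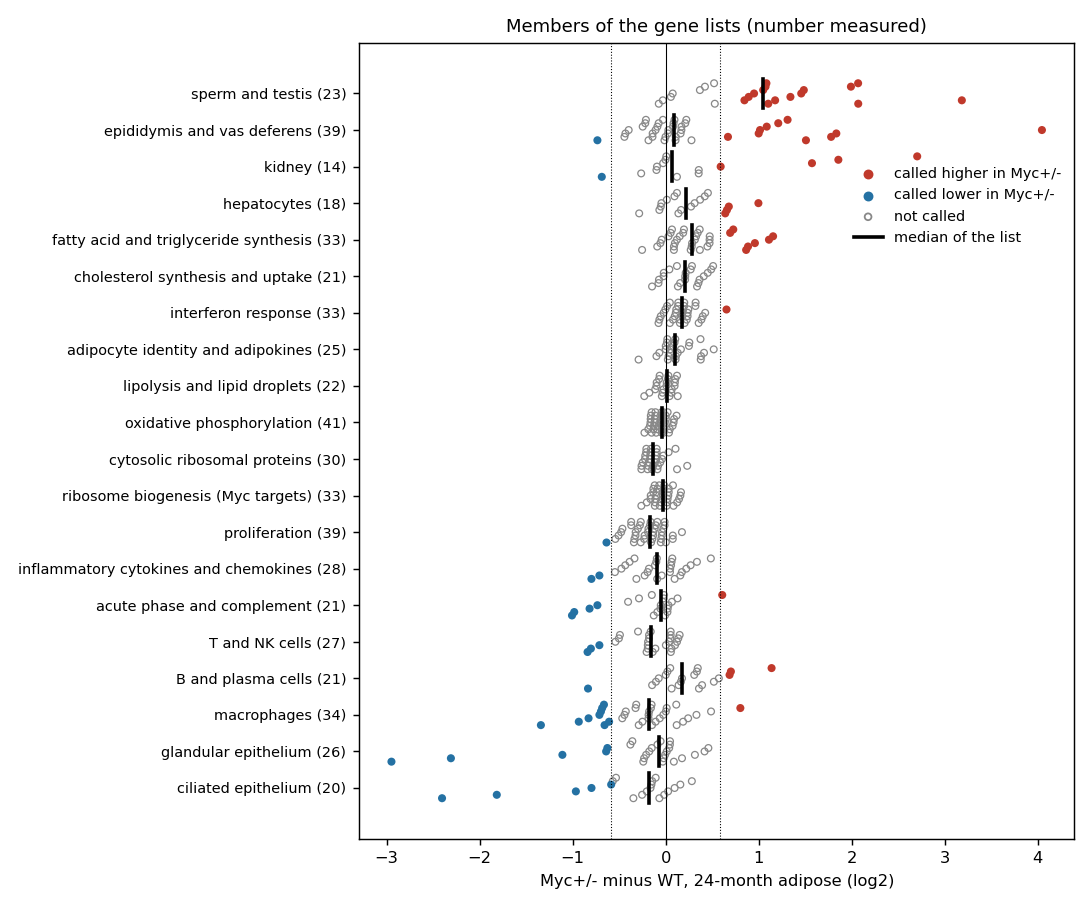
Differences between the 24-month Myc+/- and wild-type adipose pools (x axis, log2) for the genes of 20 lists, with open points for genes that did not pass, red for genes that rose, blue for genes that fell, and a black bar at the list's median. The sperm and testis list stands out with a median of 1.05, fatty acid and triglyceride synthesis has a median of 0.28 and macrophages of -0.18.

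The largest fall was in Sntn, which encodes sentan of the ciliary tip. It read 4.81, 4.58 and 4.59 in Myc+/- and 8.16, 8.15 and 7.67 in wild type, 10.1-fold lower. Its Myc+/- mean of 4.66 lay under the lower quartile of every 24-month adipose array (5.59 to 5.65). At such levels array background can hide a lower level, so the fold is best read as a minimum value. Mmp7, the metalloproteinase matrilysin of glandular epithelium, read 6.00, 5.78 and 5.84 in Myc+/- and 8.84, 8.83 and 8.79 in wild type. Fam183b, a gene of motile cilia, read 6.53, 6.58 and 6.39 in Myc+/- and 9.01, 8.96 and 8.75 in wild type. In all 3 genes the nearest arrays of the pools were more than 2 log2 units apart.

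Plet1, an epithelial surface protein, read 7.20, 7.16 and 7.44 in Myc+/- and 9.40, 9.63 and 9.69 in wild type. Sectm1b read 5.49, 5.23 and 5.69 in Myc+/- and 7.86, 7.70 and 7.53 in wild type. Calml3, an epithelial calmodulin-like protein, read 5.51, 5.53 and 5.20 in Myc+/- and 7.40, 7.33 and 7.46 in wild type. Of the 15 genes with the largest falls, 13 also fell at 5 months, in other mice, with the immune genes Igkv5-43 and Rgs1 as the exceptions. Sntn averaged 6.30 in Myc+/- and 7.76 in wild type at 5 months.

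Of 20 ciliated epithelium genes 5 fell (Fam183b, Rsph4a by 1.82, Dnah5 by 0.97, Hydin by 0.80, Dnali1 by 0.59) and none rose. Dnali1 lost the call without Myc+/- array 2 (-0.49) or wild-type array 3 (-0.50). Foxj1, the master regulator of motile cilia, differed by -0.35, under the threshold. Of 26 glandular epithelium genes 5 fell (Mmp7, Plet1, Elf3 by 1.11, Prom1 by 0.64, Epcam by 0.63) and none rose, and Epcam lost the call without Myc+/- array 3 (-0.55). The summed intensity of the ciliated list was 2324 to 2416 on the Myc+/- arrays and 3029 to 3106 on the wild-type arrays, and that of the glandular list 4781 to 5060 and 6097 to 6621. White adipose tissue has no ciliated epithelium of its own, and the part of other tissue in these values was not tested.

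The largest rises were in genes of the male reproductive tract. Spink8, a protease inhibitor of the epididymis, read 10.30, 9.85 and 10.30 in Myc+/- and 4.87, 4.62 and 4.53 in wild type, 44.5-fold higher. Serpina1f, an epididymal serpin, read 9.25, 9.05 and 9.45 in Myc+/- and 5.02, 5.10 and 5.51 in wild type, 16.5-fold higher. The wild-type means of Spink8 (4.67) and Serpina1f (5.21) also lay under the arrays' lower quartile, so both folds are best read as minimum values. Both genes also rose at 5 months, by 0.63 and 0.76, but between dim values. Spink8 averaged 5.44 in Myc+/- and 4.81 in wild type there, both under the lower quartile of the 5-month adipose arrays (5.58 to 5.63). Serpina1f averaged 5.89 in Myc+/- and 5.13 in wild type, and only the wild-type mean lay under it. The beta-defensin Defb26 read 8.13, 7.99 and 8.29 in Myc+/- and 5.30, 5.31 and 5.48 in wild type.

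Prm1, the protamine that packs sperm DNA, read 11.71, 11.55 and 11.62 in Myc+/- and 8.74, 8.78 and 7.82 in wild type, 9.08-fold higher. Its partner Prm2 read 10.49, 10.30 and 10.73 in Myc+/- and 8.36, 8.37 and 8.82 in wild type. The transition protein gene Tnp2 read 8.32, 8.79 and 8.54 in Myc+/- and 6.54, 6.49 and 6.43 in wild type. Wild-type array 3 read Prm1 lower than the other wild-type arrays, and without it the difference was 2.87.

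Of 23 sperm and testis genes 15 rose and none fell, with a median of 1.05. Smcp, of the sperm mitochondrial capsule, rose by 2.07, and Odf1 of the tail's dense fibres by 1.07. The germ-cell glycolytic enzymes Pgk2 (1.18), Ldhc (1.08) and Gapdhs (1.05) also rose. The summed intensity of the list was 8375 to 9090 on the Myc+/- arrays and 2718 to 2889 on the wild-type arrays. At 5 months it was 2002 to 2049 in Myc+/- and 2116 to 2151 in wild type, and Crisp2 alone rose there. Of 39 epididymal genes 10 rose, 1 (Adgrg2) fell and the median was 0.08, with Wfdc10 (1.83), Defb37 (1.78) and Adam7 (1.51) next to Serpina1f. The epididymal sums were 3789 to 4131 in Myc+/- and 3071 to 3253 in wild type. Adgrg2, which fell, weighs heavily in these sums: it averaged 9.64 in Myc+/- and 10.37 in wild type, against a median adipose level of 5.63 for the list. Male gonadal fat lies against the epididymis, the depot used is not given in the sources used here, and the part of testis or epididymis tissue in these values was not tested.

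Prm1, Prm2 and Tnp2 lie close together on mouse chromosome 16, and their promoters are shown because these neighbours rose together. Each sequence is the 250 bases before the gene's start from RefSeq (GRCm38.p6), 5′ to 3′ along the gene, all on the minus strand. Capitals mark TATAA, the core of a TATA box, or its reverse complement TTATA, nearest the start.
Prm1, chr16:10796824-10797073: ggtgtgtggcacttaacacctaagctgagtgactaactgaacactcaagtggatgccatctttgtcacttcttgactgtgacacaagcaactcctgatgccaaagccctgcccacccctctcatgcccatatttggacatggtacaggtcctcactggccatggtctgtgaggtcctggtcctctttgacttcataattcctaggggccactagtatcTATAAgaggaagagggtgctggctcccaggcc
Prm2, chr16:10792106-10792355: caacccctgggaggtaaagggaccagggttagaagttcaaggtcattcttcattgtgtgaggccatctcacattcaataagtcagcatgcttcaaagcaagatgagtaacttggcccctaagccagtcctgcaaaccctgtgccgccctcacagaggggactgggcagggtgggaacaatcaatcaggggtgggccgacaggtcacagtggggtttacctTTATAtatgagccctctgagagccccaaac
Tnp2, chr16:10788656-10788905: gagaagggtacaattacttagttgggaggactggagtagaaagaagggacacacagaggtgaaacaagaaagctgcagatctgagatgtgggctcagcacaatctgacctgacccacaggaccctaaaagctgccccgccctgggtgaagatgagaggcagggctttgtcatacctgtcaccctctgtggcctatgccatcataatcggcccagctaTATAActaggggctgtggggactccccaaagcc

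A promoter sequence was matched for 15614 of the 19938 genes and for 272 of the 374 that rose or fell. TATAA, searched on both strands of the 250 bases, was in 19.5% of all promoters, in 56 of 168 (33.3%) of genes that rose and in 21 of 104 (20.2%) of genes that fell. Of the sperm and testis genes that rose, 7 of 13 held it. CACGTG, the E-box bound by Myc and Max, was in 7.03% of all promoters, in 6 of the genes that rose (3.57%) and in 2 of the genes that fell (1.92%). A match describes the letters of this window and is not a binding site.

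Some kidney and liver genes rose as well, while most genes of those lists did not pass. Kap, the androgen-regulated kidney protein, read 9.43, 9.62 and 9.63 in Myc+/- and 6.80, 6.81 and 6.96 in wild type. Miox, the inositol oxygenase of the proximal tubule, read 7.52, 7.71 and 7.69 in Myc+/- and 5.67, 5.78 and 5.90 in wild type. The phosphate transporter Slc34a1 read 8.97, 9.11 and 9.15 in Myc+/- and 7.52, 7.38 and 7.60 in wild type. In all 3 genes every Myc+/- array was above every wild-type array. That separation was seen in either direction in 22.9% of all genes, and in 235 of 236 probe sets at least 1.5-fold higher. Of 14 kidney genes 4 rose and Cdh16 fell by 0.69, and the summed intensity was 6548 to 7278 in Myc+/- and 5346 to 5782 in wild type.

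Of 18 hepatocyte genes 4 rose (Cyp3a11 by 1.00, Ttr by 0.68, Mup3 by 0.66, Serpina1c by 0.64), none fell and the median was 0.22. At 5 months 16 of the 18 rose (1.05% of all genes rose there) and the median was 1.10. In the test of the 24-month minus the 5-month difference 14 passed with a negative sign (1.63% of all genes). In 24-month muscle of the same mice 14 rose and 2 fell, with a median of 1.13. Over all genes 0.371% rose and 1.01% fell in that muscle comparison. Mup3 and Serpina1c belong to families of near-identical copies. Mup3 lost the call without Myc+/- array 3 (0.58) or wild-type array 3 (0.56), and Serpina1c without Myc+/- array 3 (0.61) or wild-type array 1 (0.47). Albumin (Alb) averaged 11.72 in Myc+/- and 11.30 in wild type, under the threshold, and at 5 months 11.47 in Myc+/- and 9.93 in wild type, where it had risen. The summed intensity was 33752 to 34467 in Myc+/- and 31630 to 31858 in wild type. The part of kidney or liver tissue in these values was not tested.

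**Figure D3:**
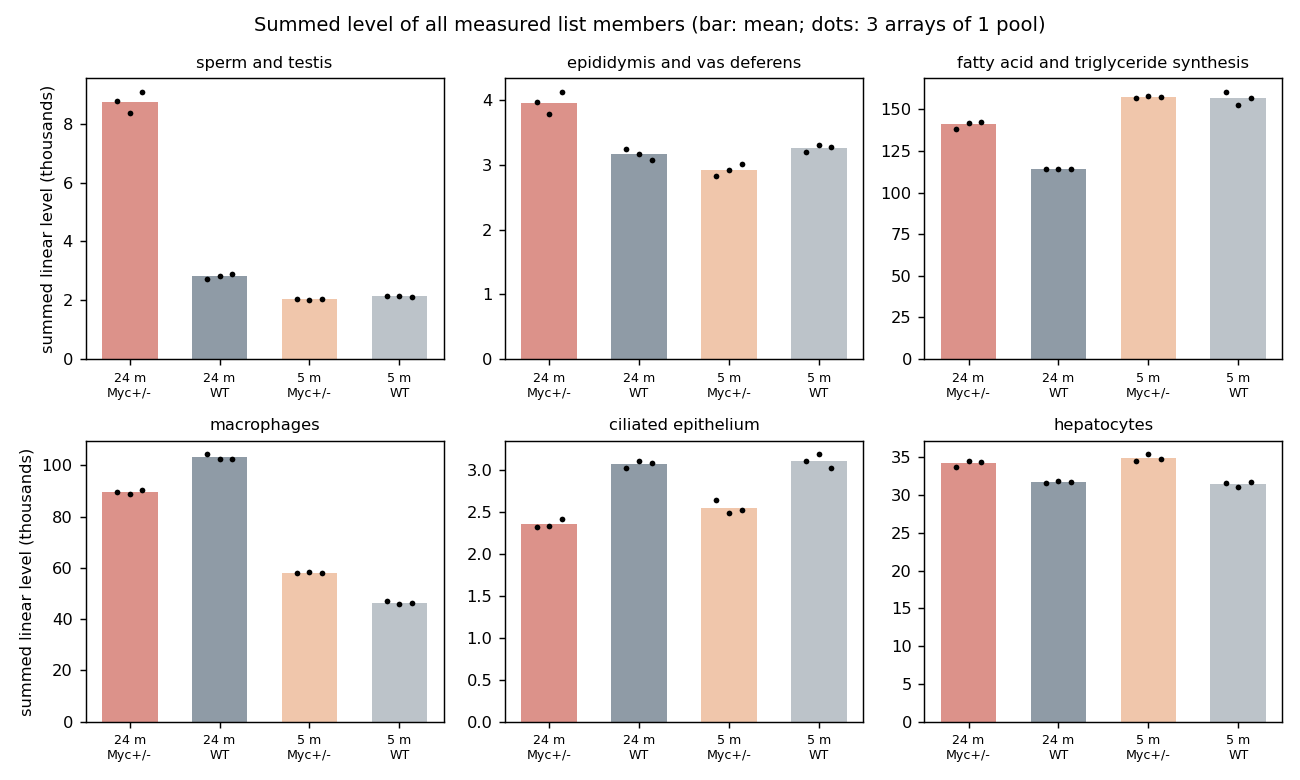
Summed intensity of 6 gene lists, on the linear scale with bars starting at 0, on the arrays of the 4 adipose pools, with Myc+/- left of wild type at each age, bars for the pool mean and dots for the 3 arrays. The sperm and testis sum is 8375 to 9090 in the 24-month Myc+/- pool and under 2900 in each of the other 3 pools, and the ciliated sum is lower in Myc+/- than in wild type.

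Among the remaining large rises was Ptgs2, the inducible cyclooxygenase that starts prostaglandin synthesis. It read 10.24, 10.40 and 10.12 in Myc+/- and 7.99, 7.86 and 8.08 in wild type, 4.83-fold higher, and at 5 months it averaged 8.15 in Myc+/- and 7.86 in wild type and did not pass. Pcp4, a calmodulin-binding peptide, read 10.18, 10.14 and 10.24 in Myc+/- and 7.34, 7.24 and 7.38 in wild type, and at 5 months it differed by -0.17. Peg10, an imprinted gene derived from a retrotransposon, read 11.38, 11.41 and 11.44 in Myc+/- and 10.28, 10.42 and 10.41 in wild type, and rose by 0.86 at 5 months as well. It was the 1 gene of 21 imprinted genes that passed.

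Single genes of other lists also passed. Acta1 of skeletal muscle rose by 1.09 (1 of 23 muscle genes) and Cnn1 of smooth muscle by 1.19 (1 of 22 endothelial and mural genes). Mmp9 rose by 0.73. Wfdc15b, placed in the mesothelial list of 17 genes, rose by 2.49, and the other 16 genes of that list did not pass. It was 1 of 5 genes that rose among 18 Wfdc genes, with Wfdc10 of the epididymal list, and no Wfdc gene fell. Rgs1, a regulator of G-protein signalling in immune cells, read 7.54, 7.72 and 7.22 in Myc+/- and 9.22, 9.19 and 8.81 in wild type, and rose by 1.14 at 5 months.

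**Figure D4:**
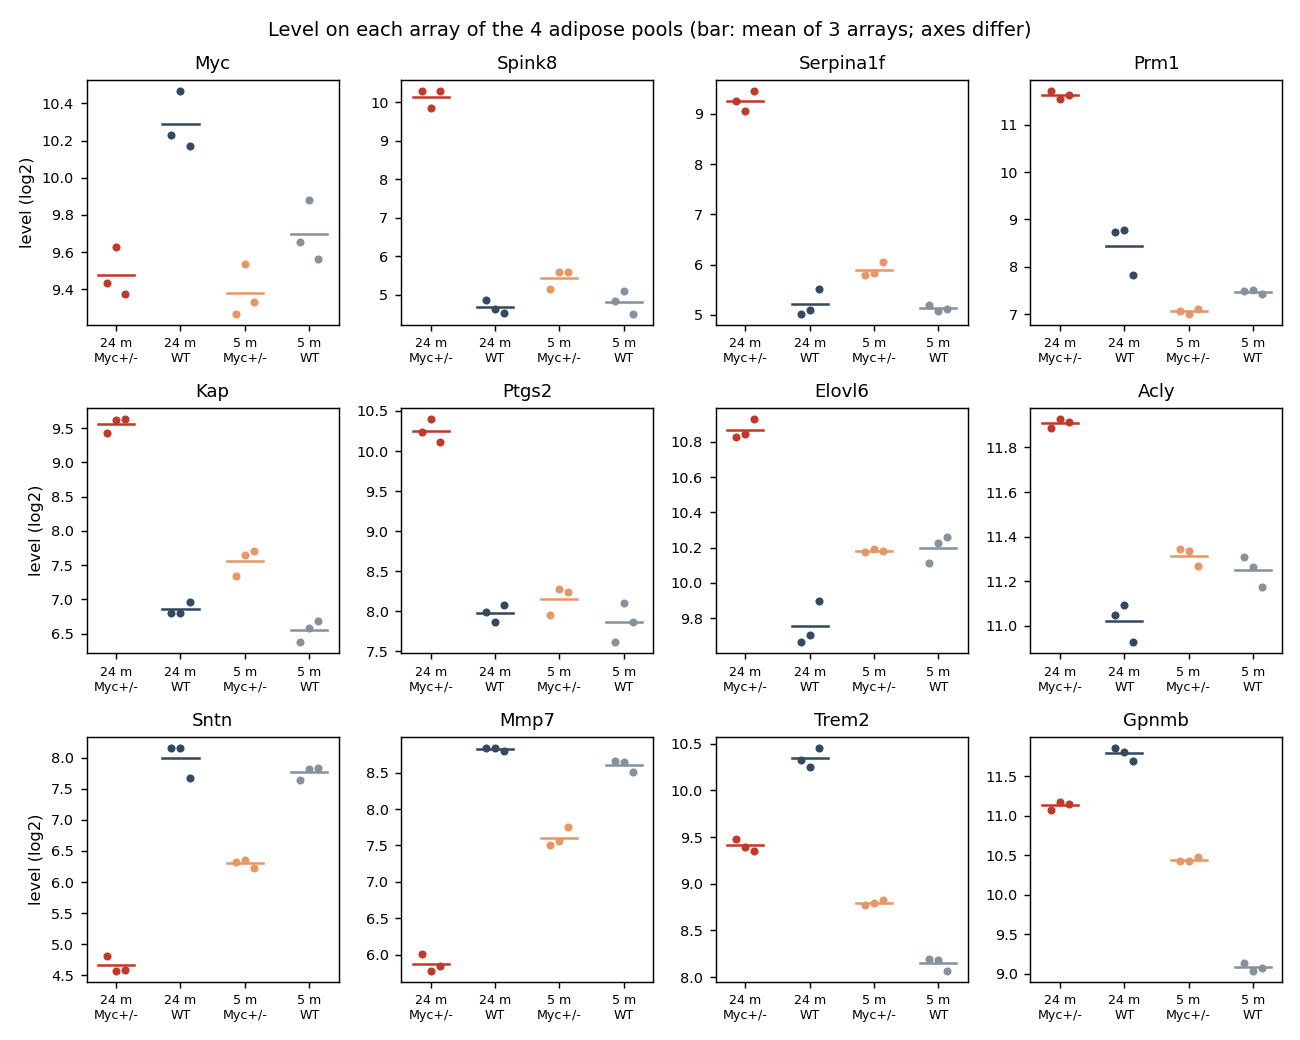
Log2 intensity (y axis) of 12 genes on the 3 arrays of each adipose pool, with Myc+/- left of wild type at each age, 1 point an array and a bar at the mean. Spink8, Serpina1f and Prm1 are high in the 24-month Myc+/- pool, Sntn and Mmp7 are lower in Myc+/- at both ages, and Trem2 and Gpnmb are lower in Myc+/- at 24 months and higher at 5 months.

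The 5-month pools came from other mice and share no sample with the 24-month pools, so they are the study's own repeat of the genotype comparison at another age. Of the 228 genes that rose at 24 months, 130 (57.0%) had a positive difference at 5 months, where 51.1% of all genes did, and 34 (14.9%) rose there too. These were 16.2% of the 210 genes that rose at 5 months. Meig1 rose at 24 months (1.37) and fell at 5 months (-0.62). Of the 146 genes that fell at 24 months, 88 (60.3%) had a negative difference at 5 months and 24 (16.4%) fell there, which were 42.9% of the 56 genes that fell at 5 months (0.281% of genes tested).

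A further 18 of the 146 genes that fell at 24 months rose at 5 months. Among them were the macrophage genes Atp6v0d2, Trem2, Mmp12, Itgax and Gpnmb, the serum amyloids Saa1, Saa2 and Saa3, and Timp1, Adam8, Dpep2, Tm4sf19, Tlr13 and Rgs1. With 1 pool per genotype and age, a difference between the ages and a difference between particular mice cannot be told apart.

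**Figure D5:**
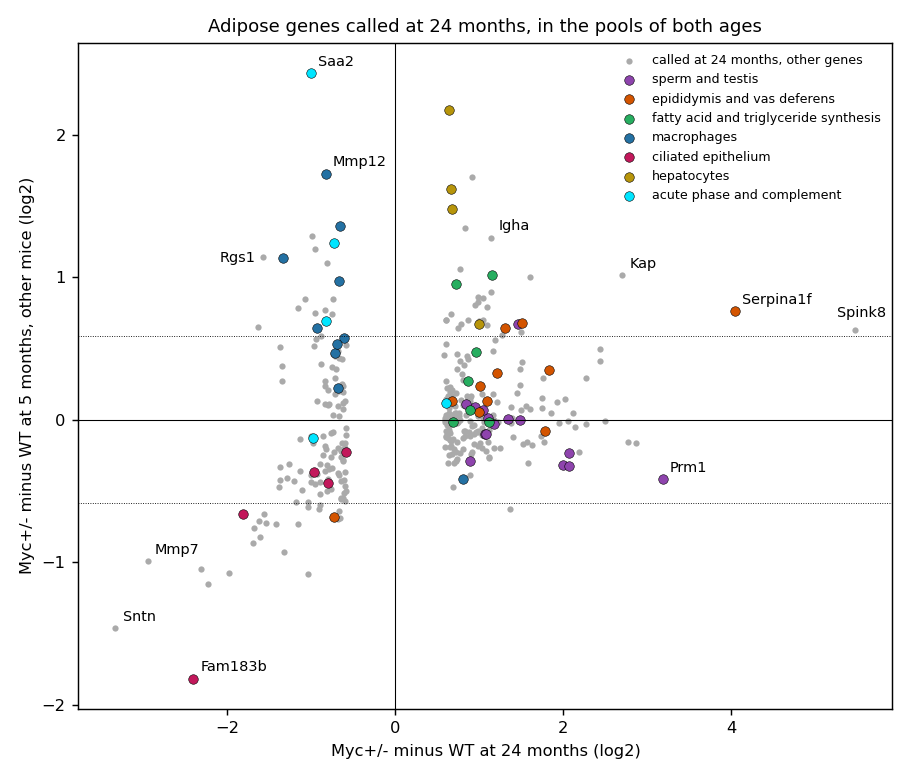
Genotype difference at 24 months (x axis, log2) against that at 5 months (y axis, log2) for the 374 adipose genes that rose or fell at 24 months. Spink8 and Serpina1f lie far right and slightly above 0, Sntn and Mmp7 lie in the lower left, and Gpnmb, Mmp12 and Trem2 lie in the upper left.

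The liver and muscle pools of the 24-month animals came from the same mice. Over the array 0.983% of genes rose and 0.572% fell in Myc+/- liver, and 0.371% rose and 1.01% fell in Myc+/- muscle. Of the 228 genes that rose in adipose tissue, 12 also rose in liver and 3 fell there, and 18 rose in muscle and 6 fell there. Of the 146 genes that fell in adipose tissue, 10 fell in liver and 9 rose there, and 11 fell in muscle and 2 rose there. Myc differed by -0.24 in liver, under the threshold, and fell by 0.82 in muscle. In the test of the adipose minus the liver difference 15 of the 23 sperm and testis genes passed with a positive sign (1.79% of all genes), and 13 passed for muscle (2.31%). None of the 23 rose or fell in either of those tissues.

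The fatty acid and triglyceride list had a median difference of -0.08 in liver and -0.38 in muscle. In the adipose minus liver test 9 of the 33 genes passed with a positive sign, and 21 passed in the adipose minus muscle test. In muscle itself 13 of the 33 fell and none rose (1.01% of all genes fell there), and these falls enter the adipose minus muscle values. In liver 1 of the 33 rose and 1 fell. In the Myc+/- muscle pool 13 of the 25 adipocyte identity genes had fallen, with a list median of -0.73, and the part of fat in the muscle pools was not tested. Of the 34 macrophage genes 7 fell and none rose in muscle, with a median of -0.46. In liver 4 of them rose and 2 fell, with a median of 0.25. Atp6v0d2 fell in both tissues (-1.34 in liver and -0.83 in muscle). Trem2 rose in liver (0.95) and did not pass in muscle (-0.15).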

How the data were processed

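The deposited log2 intensities were used as given. Per the submitters' processing notes the authors made them with Affymetrix Expression Console. Per the labels' protocols equal RNA of the mice of a group was pooled, tissue was homogenised by 1 of 2 methods not tied to samples, and the labelling kits named differ between fields. No sample was dropped.

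Probe sets were named from GEO's platform annotation (21789 with 1 symbol, 1621 with several left out, 12146 not listed). Of the 21789, 21698 matched RefSeq by Entrez identifier. limma 3.58.1 in R 4.3.3 fitted 12 group means to 36 arrays with an intensity trend, and was tested on simulated data. The median SD between arrays was 0.126. The adipose difference at 24 months was also compared with that at 5 months, in liver and in muscle.

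Genes named are drawn from the 15 largest changes each way, genes of the gene lists that passed, and Myc. Not every gene under this rule is named. The members and lists were chosen with earlier results of these data known. Genes outside that rule are named after their values were seen. Alternatives changed the normalization, filter, threshold, arrays in the fit and probe set rule. The number of arrays limits the precision of each pool's values, and 1 pool per genotype and age leaves the spread between mice unmeasured.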

Additional observations from a re-analysis of the deposited data

Results flagged for a closer look

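These values are differences between genotype differences: Myc+/- minus wild type in 24-month adipose tissue, less the same contrast in another age or tissue, tested in limma with array-to-array error. Against 5-month adipose tissue 262 probe sets passed with a larger value at 24 months and 355 with a smaller one. The largest were Spink8 (4.84), Prm1 (3.60), Serpina1f (3.28), Pcp4 (3.03) and Defb26 (2.93), and the most negative were Saa2 (-3.44), Gpr50 (-2.86), Rgs1 (-2.72), Hamp (-2.59) and Mmp12 (-2.56). Gpr50 and Hamp differed by -0.45 and -0.04 at 24 months and by 2.41 and 2.56 at 5 months.

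Against 24-month liver of the same mice 383 probe sets passed with a larger value in adipose tissue and 390 with a smaller one. The largest were Spink8 (5.53), Serpina1f (3.88), Sult3a1 (3.76), Pcp4 (3.17) and Prm1 (3.17). The most negative were Sntn (-3.29), Cpb1 (-2.51), Fam183b (-2.43), Cpa1 (-2.43) and Mmp7 (-2.42). Sult3a1, Cpb1 and Cpa1 differed by 0.05, -0.03 and 0.11 in adipose tissue, so their values come from liver.

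Against 24-month muscle of the same mice 477 probe sets passed with a larger value in adipose tissue and 256 with a smaller one. The largest were Spink8 (5.41), Serpina1f (4.05), Prm1 (2.93), Defb26 (2.72) and Pcp4 (2.70). The most negative were Sntn (-3.46), Mmp7 (-3.05), Fam183b (-2.63), Chad (-2.55) and Sectm1b (-2.30). Outlying arrays were not tested for, since each pool has 3.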

How the results depend on the processing

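The filter on dim probe sets and the fold threshold moved the counts. Above the 40th percentile of adipose intensity 74 probe sets rose and 83 fell, above the 60th 40 and 41, and at 2-fold 96 and 44, against 234 and 169. Against 5-month adipose tissue the 40th percentile left 98 with a larger value, and the 60th 63 larger and 151 smaller. Against liver these were 177 and 229, then 108 and 137. Against muscle the 40th left 107 smaller, and the 60th 256 larger and 38 smaller. Leaving out 1 array gave 222 to 259 higher and 158 to 181 lower, and for the differences of differences 227 to 266 and 338 to 373 by age, 342 to 411 and 373 to 413 for liver, and 436 to 500 and 221 to 283 for muscle. The array numbers do not pair the pools (correlations of same-numbered deviations 0.0675, 0.0152 and 0.138), and a replicate block gave 234 higher and 171 lower. Of 121 named genes 49 lost the call under some alternative, all of them at 2-fold, and none changed sign. The filters left 66 of the 121 (40th percentile) and 41 (60th) to test, and the others, among them Spink8, Serpina1f, Defb26 and Sntn, have no call there. Of 387 list medians under alternatives 19 moved by more than the spread between arrays and none changed sign. One pool per genotype limits all of these results.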

Other observations

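The genes below were chosen after their values were seen. Around Ptgs2, the prostaglandin receptor genes Ptgfr (0.89) and Ptger3 (0.86) rose in the 24-month Myc+/- pool and Hpgds, a prostaglandin D synthase, fell by 0.76. Ptges (0.45), Ptgds (0.06), Ptgis (0.06) and Ptger4 (0.04) did not pass. Of smooth muscle genes Cnn1 rose, with 8.85, 8.50 and 8.67 in Myc+/- and 7.40, 7.50 and 7.56 in wild type. The actin Actg2 (0.76) rose too, as did the channel gene Kcnma1 (1.17), called on 1 of its 2 probe sets. Acta2 (0.43), Myh11 (0.28), Des (0.16), Myl9 (0.08), Tagln (0.02) and Mylk (-0.03) did not pass. Kcnma1 also rose in 24-month liver (1.97) and muscle (0.81) of the same mice.

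Of 5 Cyp4a genes 4 rose (Cyp4a12a, Cyp4a12b, Cyp4a31 by 1.11 and Cyp4a10 by 0.85), and of 13 Cyp2c genes 5 rose. These families hold near-identical copies that may share signal. Of 53 small nucleolar RNAs 5 fell, none rose, 47 had a negative difference and the median was -0.30. That median was -0.05 in 5-month adipose tissue, -0.20 in liver and -0.19 in muscle. Beside the macrophage genes that fell, Timd4 (0.98), Cd209g (0.66) and Pla2g2d (0.63), genes of resident tissue macrophages and dendritic cells, rose. Mrc1, Cd163 and Lyve1, also of resident macrophages, did not pass. Of the 13 measured genes in the list of MHC class II and dendritic cells, none rose or fell. That list had 6 positive and 7 negative differences and a median of -0.03. The phagocyte genes Fcgr4 (-0.94), Cd72 (-0.96), Tm4sf19 (-1.07) and Slc37a2 (-0.68) fell.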
